A study of Rattus norvegicus with 11 samples.

Results

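The phagocyte NADPH oxidase genes Cybb, Cyba, Ncf1, Ncf4 and Rac2 were examined in the rat striatum after intracerebral hemorrhage. They were chosen by name, as the genes whose symbol in the deposited matrix was one of these names, which gave 5 of the 30560 genes listed. RNA was sequenced on day 3 from the striatum of 11 adult male Sprague-Dawley rats, with 1 library per rat. The study asked how the size of a hemorrhage, and removal of the clot, change gene expression in this tissue. The 3 IC rats (the common hemorrhage model) received 0.2 U of bacterial collagenase VII-S in 1.0 μL of saline in the right striatum. The 3 IS rats (the severe model) received 0.6 U in 3.0 μL, and the 3 IS-HA rats received the IS dose and had 150 μL of hematoma aspirated through a catheter at 6 h. The 2 Normal rats had neither collagenase nor aspiration, so the injection itself, as well as the enzyme and the blood, separates them from the other groups. Tissue came from the injected side, and from the corresponding region of the Normal rats. Each IS-HA rat also had a second anesthesia and a catheter passage, which cannot be told apart from the removal of blood, since no group had the catheter alone.

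The phagocyte oxidase moves electrons from NADPH across a membrane onto oxygen and so makes superoxide, the source of the respiratory burst of neutrophils, monocytes and macrophages. Its catalytic chain gp91phox, also called NOX2 and encoded by Cybb, sits in the membrane with p22phox, encoded by Cyba. On stimulation a cytosolic complex that includes p47phox (Ncf1) and p40phox (Ncf4) joins them together with a Rac GTPase, which in blood cells is chiefly Rac2. In the brain these genes are known chiefly from microglia, and blood leukocytes that enter injured tissue carry them as well.

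Promoter sequences are shown for the members that could be matched in RefSeq (build GRCr8, a later build than that of the deposited counts), because all members rose against Normal and their transcription in myeloid cells is known to involve PU.1 and interferon-responsive factors. Of the 5 members, 3 matched by symbol, and Ncf4 and Rac2 are named only. Each sequence is the 150 bases before the annotated start, read 5′ to 3′ along the gene, and capitals mark the matches found by searching the 250 bases before the start for GAGGAA (the core of the PU.1 motif, TTCCTC on the other strand) and for an interferon response element (GAAA and, after any 2 bases, GAAA again, on either strand). Cybb lies on the minus strand at chrX:16065066-16065215, Cyba on the minus strand at chr19:67404215-67404364 and Ncf1 on the plus strand at chr12:28121735-28121884.
Cybb: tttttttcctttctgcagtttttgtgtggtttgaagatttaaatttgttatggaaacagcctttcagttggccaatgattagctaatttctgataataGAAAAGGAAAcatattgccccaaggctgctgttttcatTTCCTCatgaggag
Cyba: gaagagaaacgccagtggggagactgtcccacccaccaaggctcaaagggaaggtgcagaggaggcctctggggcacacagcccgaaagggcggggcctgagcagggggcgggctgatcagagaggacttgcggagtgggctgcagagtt
Ncf1: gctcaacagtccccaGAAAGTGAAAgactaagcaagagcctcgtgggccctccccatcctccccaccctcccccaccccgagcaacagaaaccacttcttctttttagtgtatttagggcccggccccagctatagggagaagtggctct
Cybb held 1 match to each motif, with GAAAAGGAAA ending 43 bases and TTCCTC ending 9 bases before the start. Ncf1 held GAAAGTGAAA, which ended 126 bases before the start, and Cyba held neither set of letters in this window. Among all 33469 promoters of the same length, 23.3% held the PU.1 letters and 3.41% held the interferon letters on either strand, and the matches did not overlap each other.

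The libraries held 6701301 to 18817645 counts assigned to genes, the smallest being IS-HA replicate 2, and a floor of 3 counts corresponded to 0.159 to 0.448 CPM (counts scaled to a common library total). All 5 members passed the filter on low counts, which left 15742 genes for testing. In the Normal rats the members rested on 8 to 114 counts, with Ncf4 the lowest at 15 and 8 counts. In the 9 injured rats every member had at least 162 counts. Replicate numbers are those of the labels, and the same number in different groups marks different animals. Levels are given in TPM, a unit that divides counts by gene length and scales each rat to the same sum. Fold changes are from the counts, and a gene was called when the adjusted p was under 0.05 and the absolute log2 fold change was at least 1.

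All 5 oxidase genes rose in each of the 3 hemorrhage groups. The median log2 fold change of the members was 4.25 in IC against Normal, 5.48 in IS against Normal and 4.85 in IS-HA against Normal, where the medians over all genes tested were 0.00, 0.02 and 0.06. The share of all tested genes called higher was 10.9% in IC, 18.8% in IS and 15.1% in IS-HA. In each of these comparisons the TPM of all 5 members did not overlap with Normal, which was also true, in the higher direction, of 34.6%, 37.2% and 33.3% of all tested genes. The 3 comparisons share the 2 Normal rats, so their values stand side by side and are not separate support for each other.

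**Figure D1:**
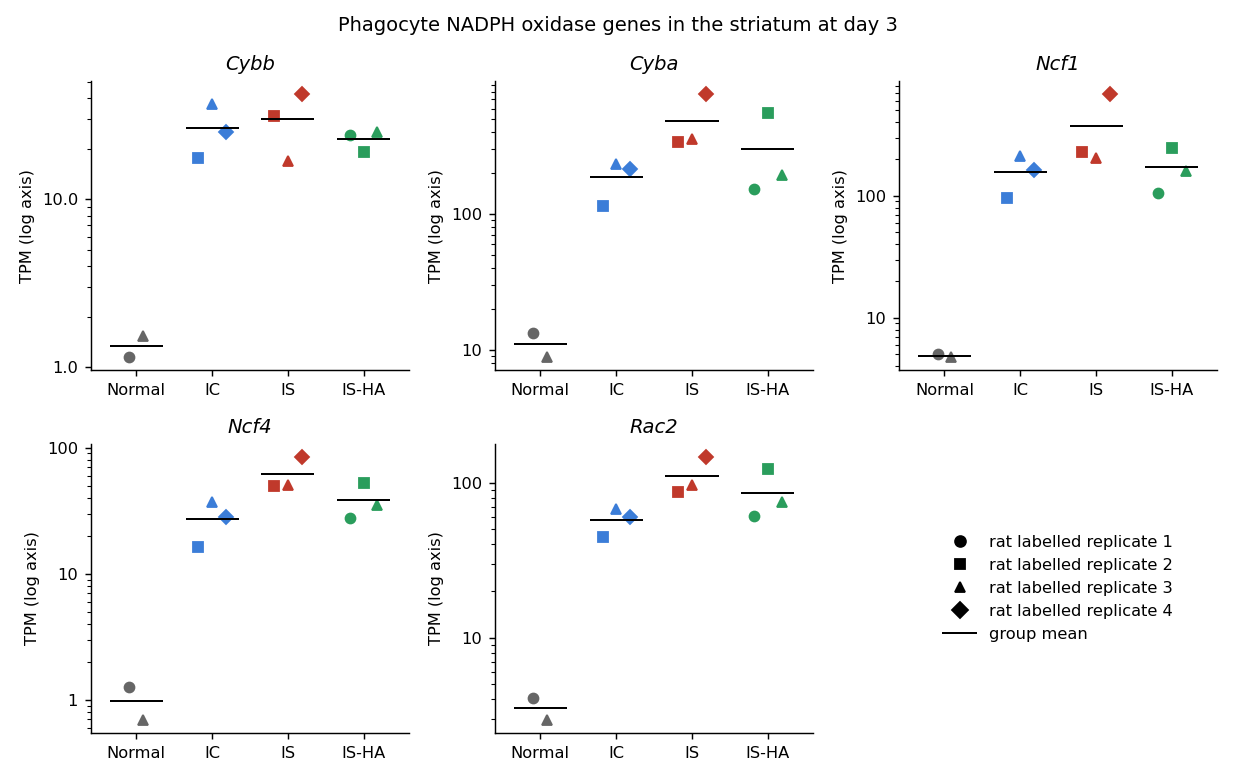
TPM of each of the 5 genes (log axis, a separate scale for each gene) in the 11 rats by group, where symbols give the replicate number of the label and lines give group means. Every injured rat lies above both Normal rats for all 5 genes, and IS replicate 4 is the highest rat for each.

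Cybb, the catalytic chain, stood at 1.15 and 1.54 TPM in Normal replicates 1 and 3. It reached 17.6, 37.1 and 25.2 TPM in IC replicates 2, 3 and 4, 31.3, 16.9 and 42.2 TPM in IS replicates 2, 3 and 4, and 24.3, 19.1 and 25.1 TPM in IS-HA replicates 1, 2 and 3. The 3 hemorrhage groups overlapped, and the lowest rat of all of them was an IS rat. The group means were 26.6 ± 9.82 TPM in IC, 30.1 ± 12.7 TPM in IS and 22.9 ± 3.24 TPM in IS-HA (SD, n = 3 each), against 1.35 ± 0.275 TPM in Normal (SD, n = 2). Cybb rose by a log2 fold change of 4.25 (SE 0.47, adjusted p = 0.000233) in IC, 4.51 (SE 0.47, adjusted p = 7.78e-05) in IS and 4.06 (SE 0.47, adjusted p = 0.000212) in IS-HA.

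Cyba, the membrane partner that stabilizes the catalytic chain and docks the cytosolic complex, was the most abundant member per length in 9 of the 9 injured rats. Its TPM was 13.3 and 8.86 in Normal, 115.5, 234.7 and 213.3 in IC, 339.8, 355.8 and 765.3 in IS, and 154.4, 557.4 and 193.0 in IS-HA, in the order of replicates used for Cybb. All IS rats lay above all IC rats, while IS-HA replicate 2 lay among the IS rats and the other 2 IS-HA rats lay among the IC rats. The means were 11.1 ± 3.17 TPM in Normal (SD, n = 2), 188 ± 63.6 in IC, 487 ± 241 in IS and 302 ± 222 in IS-HA (SD, n = 3 each). The rise had a log2 fold change of 4.02 (SE 0.79, adjusted p = 0.00581) in IC, 5.48 (SE 0.84, adjusted p = 0.000612) in IS and 4.85 (SE 0.82, adjusted p = 0.00183) in IS-HA. The IC call was lost without Normal replicate 3 (log2 fold change 3.70, adjusted p = 0.0882), and without IS-HA replicate 2 the IS-HA value was 3.82, still called.

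Ncf1 encodes p47phox, the organizer that is phosphorylated on stimulation and brings the cytosolic complex to the membrane. It stood at 5.01 and 4.76 TPM in Normal and at 96.1, 212.7 and 163.9 TPM in IC. In IS it reached 228.2, 205.2 and 680.3 TPM, and in IS-HA 106.2, 246.4 and 161.1 TPM. IS replicate 4 was 3.32 times the lowest IS rat, the widest spread of any member within IC or IS. In TPM, IC and IS overlapped because IS replicate 3 lay below IC replicate 3. In the scaled CPM behind the fold changes they did not, at 121 to 262 in IC and 282 to 993 in IS. The means were 4.89 ± 0.175 TPM in Normal (SD, n = 2), 158 ± 58.6 in IC, 371 ± 268 in IS and 171 ± 70.6 in IS-HA (SD, n = 3 each). The IS mean was 76.0 times the Normal mean, and the log2 fold change was 4.95 (SE 0.75, adjusted p = 0.00131) in IC, 6.30 (SE 0.81, adjusted p = 0.000218) in IS and 5.18 (SE 0.76, adjusted p = 0.000824) in IS-HA. Without IS replicate 4 the IS value was 5.43, below the 5.61 of Ncf4 in that fit, and still called.

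Ncf4 encodes p40phox, which binds a phosphoinositide of phagosome membranes and holds the cytosolic complex there. It was at 1.28 and 0.696 TPM in Normal, 16.3, 37.2 and 28.1 TPM in IC, 49.2, 50.9 and 84.4 TPM in IS, and 27.5, 52.6 and 34.9 TPM in IS-HA. All IS rats lay above all IC rats, and IS-HA overlapped with both. The means were 0.987 ± 0.411 TPM in Normal (SD, n = 2), 27.2 ± 10.5 in IC, 61.5 ± 19.8 in IS and 38.4 ± 12.9 in IS-HA (SD, n = 3 each). The log2 fold change was 4.70 (SE 0.62, adjusted p = 0.000632) in IC, 5.96 (SE 0.65, adjusted p = 8.76e-05) in IS and 5.28 (SE 0.63, adjusted p = 0.000273) in IS-HA.

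Rac2, the GTPase that switches the assembled enzyme on, had 4.05 and 2.95 TPM in Normal, 44.6, 67.6 and 60.2 TPM in IC, 87.5, 97.1 and 146.9 TPM in IS, and 61.3, 122.6 and 75.3 TPM in IS-HA. Again all IS rats lay above all IC rats, and IS-HA overlapped with both. The means were 3.50 ± 0.784 TPM in Normal (SD, n = 2), 57.5 ± 11.8 in IC, 110.5 ± 31.9 in IS and 86.4 ± 32.1 in IS-HA (SD, n = 3 each). Rac2 rose by a log2 fold change of 3.97 (SE 0.50, adjusted p = 0.000476) in IC, 5.00 (SE 0.52, adjusted p = 7.67e-05) in IS and 4.66 (SE 0.52, adjusted p = 0.000179) in IS-HA.

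By group mean TPM, Cyba, Ncf1, Ncf4 and Rac2 followed the order Normal, IC, IS-HA, IS, while Cybb followed the order Normal, IS-HA, IC, IS. Among neighbors in these orders, only the step up from Normal exceeded the spread between rats. For all 5 members the IC and IS-HA ranges overlapped, as did the IS-HA and IS ranges. These are levels in bulk tissue, in which more cells of a type and more RNA per cell cannot be told apart.

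IS against IC set the larger beside the smaller hemorrhage. The IS rats also received more collagenase (0.6 against 0.2 U) in a larger volume (3.0 against 1.0 μL). Neither can be told apart from the size of the hemorrhage. The fitted values of all 5 members were above 0, and none was called, as none of all 15742 genes was in the higher direction (0%). The log2 fold changes were 1.47 for Cyba (SE 0.58, adjusted p = 0.190), 1.35 for Ncf1 (SE 0.54, adjusted p = 0.191), 1.26 for Ncf4 (SE 0.41, adjusted p = 0.162), 1.03 for Rac2 (SE 0.37, adjusted p = 0.172) and 0.26 for Cybb (SE 0.33, adjusted p = 0.627) by edgeR's quasi-likelihood test. Without adjustment, 4 members (all but Cybb) had p under 0.05 in edgeR in the higher direction, as did 10.5% of all genes. In TPM, 3 members (Cyba, Ncf4 and Rac2) lay entirely higher in IS than in IC, as did 15.4% of all genes. DESeq2's Wald test also called 0 members, with adjusted p of 0.0851 for Cyba, 0.0878 for Ncf1, 0.0503 for Ncf4, 0.0764 for Rac2 and 0.619 for Cybb, where it called 1.63% of all genes higher.

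The size of these differences depended on single rats. Without IS replicate 4, the log2 fold changes in IS against IC were 0.91 for Cyba, 0.91 for Ncf4, 0.71 for Rac2, 0.48 for Ncf1 and -0.13 for Cybb. Without IS-HA replicate 2, a rat of neither group, standard errors were smaller (0.38 rather than 0.58 for Cyba) and 3 members were called, Cyba (1.47, adjusted p = 0.0366), Ncf4 (1.26, adjusted p = 0.0374) and Rac2 (1.03, adjusted p = 0.0334), while 2.19% of all genes were called higher. Ncf1 remained above the threshold at an adjusted p of 0.0749 and Cybb at 0.594 in that fit.

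IS-HA against IS, which shares the 3 IS rats with the comparison above, addressed the removal of blood. The fitted values of all 5 members were below 0, none was called, and none had an unadjusted p under 0.05 in edgeR or was called by DESeq2. Over all genes, 0% were called lower (0.121% by DESeq2), 3.36% had an unadjusted p under 0.05 in the lower direction, and 6.37% lay entirely below IS in TPM, which no member did. Ncf1 had a log2 fold change of -1.12 (SE 0.53, adjusted p = 0.563), Ncf4 of -0.68 (SE 0.41, adjusted p = 0.604), Cyba of -0.64 (SE 0.57, adjusted p = 0.724), Cybb of -0.45 (SE 0.33, adjusted p = 0.666) and Rac2 of -0.34 (SE 0.36, adjusted p = 0.777). The 3 IS-HA rats were not alike. For Cybb replicate 2 was the lowest of its group in TPM, though in scaled CPM the 3 rats were close, at 29.84, 30.35 and 30.6 in replicates 1, 2 and 3. For Cyba, Ncf1, Ncf4 and Rac2 the highest of the group was replicate 2. Without it the log2 fold changes were -1.67 for Cyba (adjusted p = 0.0567), -1.67 for Ncf1 (adjusted p = 0.0838), -1.15 for Ncf4 (adjusted p = 0.0833), -0.86 for Rac2 (adjusted p = 0.0879) and -0.44 for Cybb (adjusted p = 0.431). Without IS replicate 4 they lay between -0.32 for Ncf4 and -0.02 for Rac2.

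IS-HA against IC set the aspirated severe hemorrhage beside the common one. The log2 fold changes were 0.83 for Cyba, 0.69 for Rac2, 0.59 for Ncf4, 0.23 for Ncf1 and -0.18 for Cybb (SE 0.33 to 0.57, adjusted p 0.841 to 0.941). No member was called by edgeR or DESeq2, none had an unadjusted p under 0.05, and all 5 overlapped in TPM. Over all genes, 0% were called higher by edgeR and 0.0572% by DESeq2, 2.59% had an unadjusted p under 0.05 in the higher direction, and 4.83% lay entirely above IC. Without IS-HA replicate 2, Cyba stood at -0.20 and Ncf1 at -0.32.

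**Figure D2:**
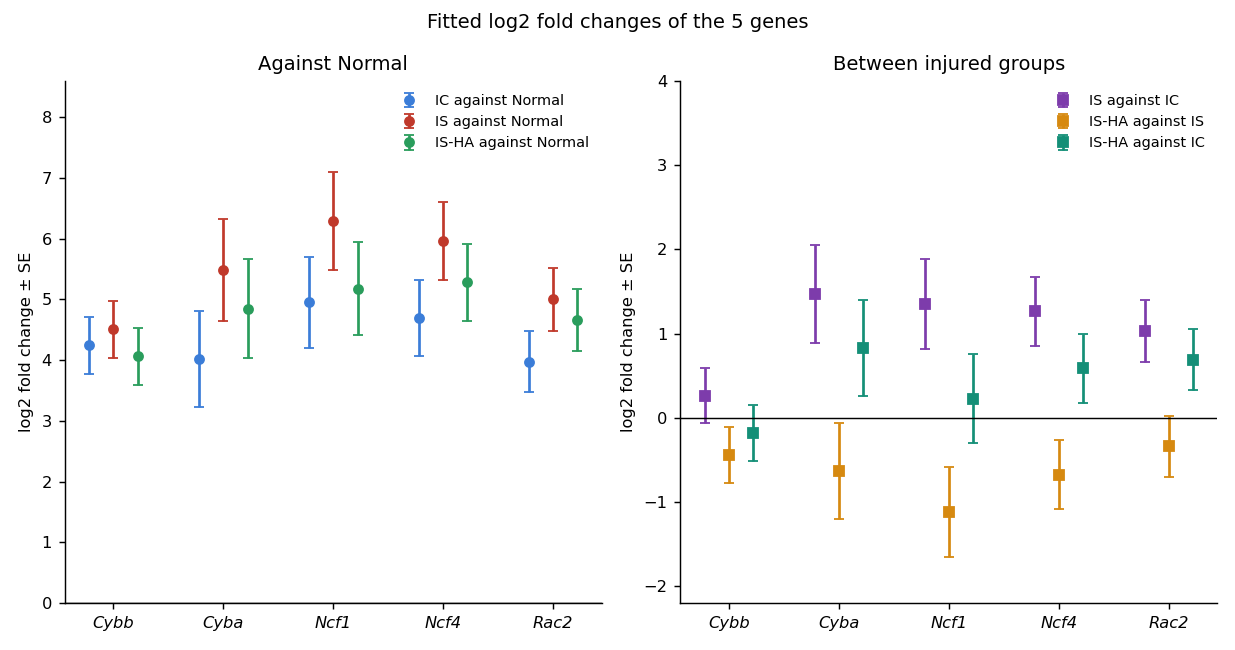
Fitted log2 fold changes (points) with their standard errors (bars) for the 5 genes, against Normal on the left and between the injured groups on the right, where the horizontal line marks 0. All values against Normal lie between 3.97 and 6.30, and those between injured groups lie between -1.12 and 1.47.

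Cybb stood apart from the other 4 members. Over the 11 rats, with each gene's log2 CPM centered on its own mean, Cybb differed from the others by a mean absolute 0.43 to 0.65, while the other 4 differed among themselves by 0.26 to 0.37. Relative to Cybb in the same rat, Ncf1 TPM was 5.47 to 6.49 times as high in IC and 7.30 to 16.1 times in IS. Cyba was 6.33 to 8.45 times as high as Cybb in IC and 10.9 to 21.0 times in IS, and in IS-HA it was 6.36, 29.1 and 7.69 times as high. Ncf4 and Rac2 showed the same separation, with ratios to Cybb of 0.926 to 1.11 and 1.82 to 2.54 in IC and of 1.57 to 3.00 and 2.80 to 5.73 in IS. For each of the 4 genes every IS ratio was above every IC ratio, and IS-HA replicate 2 had a higher ratio than the other IS-HA rats. In Normal replicates 1 and 3 the ratios were 11.6 and 5.75 for Cyba and 3.52 and 1.91 for Rac2. For Ncf1 they were 4.35 and 3.09, and for Ncf4 1.11 and 0.452. Normal replicate 1 thus lay within the IS range for Cyba and Rac2, and below it for Ncf1 and Ncf4. Cybb was taken as the denominator after its values were seen, so these ratios are a description and carry no test.

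Gene length moved with the same rats. The genes of Cyba and Ncf4, as counted, were 0.256 and 0.521 times as long as that of Cybb, and Rac2 was 0.831 times, while Ncf1 was of nearly the same length, at 1.01 times. The level of short relative to long genes, as a log2 difference within each rat centered over the injured rats, was highest in IS-HA replicate 2 at 0.76, lay between 0.07 and 0.33 in IS, between -0.35 and -0.09 in IC and between -0.90 and -0.57 in Normal, and was -0.33 and -0.32 in the other IS-HA rats. With a correction for gene length the IS against IC log2 fold change was 1.09 for Cyba, 1.07 for Ncf4, 0.96 for Rac2, 1.34 for Ncf1 and 0.25 for Cybb. Against Normal the correction moved Cyba most, to 3.69 in IC, 4.78 in IS and 4.03 in IS-HA, and all 5 members stayed called in the 3 groups. In IS-HA against IC it moved Cyba to 0.34. Being of like length, Ncf1 and Cybb get nearly the same correction, so it cannot bear on the difference between them. The cause of that difference was not tested.

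Marker sums of pan-myeloid cells, of microglia, of monocytes and macrophages and of neutrophils were, like the members, higher in every injured rat than in Normal. The summed TPM of 8 pan-myeloid markers (all 8 called higher in each hemorrhage group) was 179 to 221 in Normal, 1179 to 1695 in IC, 1960 to 3187 in IS and 1453 to 2457 in IS-HA. The sum of 9 markers of monocytes and macrophages was 40.2 to 50.0 in Normal, 732 to 1743 in IC, 1471 to 4403 in IS and 1061 to 1627 in IS-HA. Most of that sum was Lyz2, with means of 32.4, 818, 2120 and 908 TPM in Normal, IC, IS and IS-HA, where the sum had means of 45.1, 1219, 2737 and 1313. In IS against IC, 8 of the 9 had fitted values above 0, and the lowest was -0.38. The sum of 9 neutrophil markers was 5.20 to 5.29 in Normal, 85.6 to 269.9 in IC, 516 to 711 in IS and 171 to 869 in IS-HA, with IS-HA replicate 2 the highest of all. Of the 7 neutrophil markers that could be tested, 6 were called higher in IC, 7 in IS and 7 in IS-HA, where 10.9%, 18.8% and 15.1% of all genes were. In IS against IC none of the 7 was called, and their median log2 fold change was 1.92. In edgeR 6 of them had an unadjusted p under 0.05 in the higher direction there, as did 10.5% of all genes. Mpo, the granule myeloperoxidase and 1 of the 9 listed, was at 0 in 9 of 11 rats. S100a8 and S100a9, which monocytes also express, had the highest means in IS, at 256 and 255 TPM.

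The sum of 7 microglial markers was 186 to 210 in Normal, 470 to 552 in IC, 431 to 462 in IS and 393 to 577 in IS-HA. It was lower in every IS rat than in every IC rat, by a narrow margin (462 against 470). Against Normal, 5 of the 7 genes were called higher in IC, 4 in IS and 5 in IS-HA, where 10.9%, 18.8% and 15.1% of all genes were. None of the 7 genes was called in IS against IC. Their fitted values there had a median of -0.51 and a lowest of -0.74, and 3 were above 0, the highest 0.39 for Olfml3. Striatal neuron markers, the check of the labelled tissue, were all above 0 in every rat, and their sum was 6301 to 6720 TPM in Normal, 2775 to 5496 in IC, 1353 to 3568 in IS and 1363 to 3026 in IS-HA. Astrocyte markers summed to 1289 to 1601 TPM in Normal and 3013 to 7303 TPM over the injured rats. That rise was not shared by all 6 genes, of which 1 was called higher and 1 lower in each hemorrhage group. Against Normal, 5 of the 6 had fitted values above 0 in IC, 1 in IS and 4 in IS-HA. Those in IS ran from -3.744 to 3.155. The 3 erythroid markers found of 5 summed to 42.3 to 47.6 TPM in Normal and 12.3 to 133.8 TPM over the injured rats. Markers of T and NK cells summed to 0.871 to 18.1 TPM and those of B cells to 0.678 to 3.13 TPM over all rats. The part of these cell types in the members' differences was not tested.

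**Figure D3:**
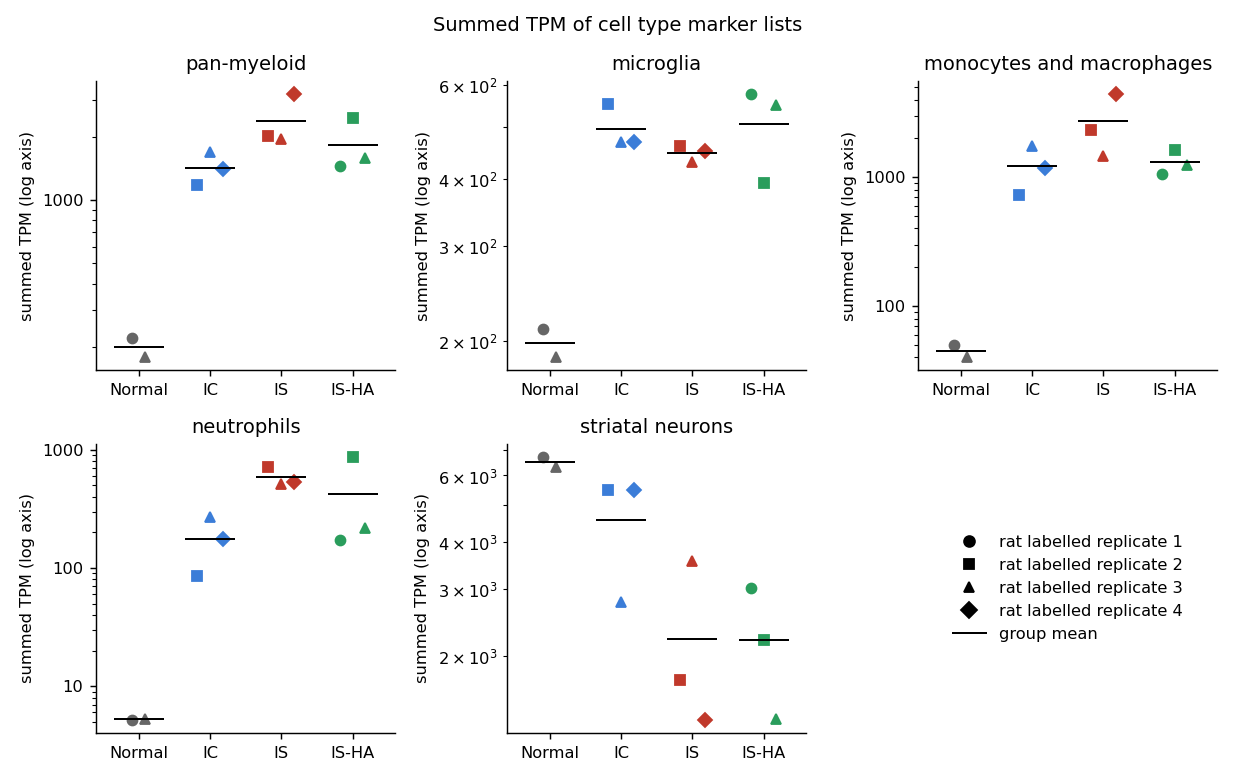
Summed TPM of marker lists (log axes) for pan-myeloid cells, microglia, monocytes and macrophages, neutrophils and striatal neurons in the 11 rats, with symbols for the replicate number and lines for group means. The neutrophil sum is 869 TPM in IS-HA replicate 2 and 171 to 219 TPM in the other IS-HA rats, while the microglial sum is 393 TPM in that rat and 549.5 to 577 TPM in the others.

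Set against the pan-myeloid sum, the members were still higher in every injured rat than in Normal except for Cybb. Per 1000 TPM of these markers, Ncf1 was 22.7 to 26.7 TPM in Normal, 81.5 to 125.5 in IC, 105 to 214 in IS and 73.1 to 102 in IS-HA. Ncf4 was 3.90 to 5.77 in Normal, 13.8 to 21.9 in IC, 24.4 to 26.5 in IS and 19.0 to 22.0 in IS-HA. Cyba was 49.6 to 60.3 in Normal, 98.0 to 153 in IC, 169 to 240 in IS and 106 to 227 in IS-HA. Rac2 ran from 16.5 to 18.3 in Normal and from 37.8 to 49.9 over the injured rats. Cybb was 5.21 and 8.63 in Normal, 14.9 to 21.9 in IC, 8.64 to 15.5 in IS and 7.79 to 16.7 in IS-HA, so that IS-HA replicate 2 lay below Normal replicate 3. On this scale Ncf4, Cyba and, by a narrow margin (43.5 against 43.1), Rac2 were higher in every IS rat than in every IC rat, and Cybb had a lower mean in IS (12.5 ± 3.51) than in IC (18.3 ± 3.49; SD, n = 3 each), with overlap. The marker genes themselves differ between the groups, so these are ratios and not levels per cell.

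**Figure D4:**
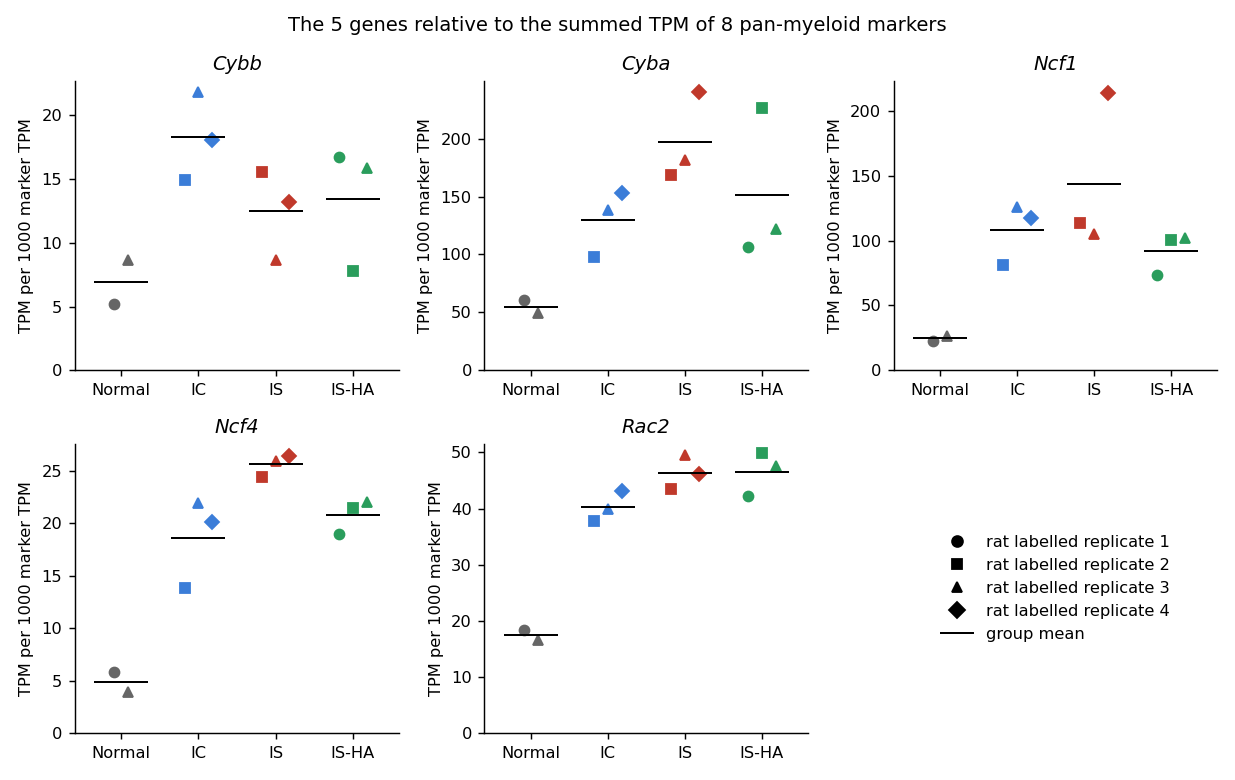
TPM of each of the 5 genes per 1000 TPM of the summed pan-myeloid markers (linear axes from 0, a separate scale for each gene) in the 11 rats by group, where symbols give the replicate number and lines give group means. Cybb is highest in IC, with a mean of 18.3, and Ncf4 is highest in IS, at 24.4 to 26.5 in the 3 rats.

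Of 3 helpers of the oxidase, 1 rose in the severe hemorrhage groups and the others were not called. Cybc1, a chaperone needed for the membrane heterodimer, rose by 1.49 in IS and 1.13 in IS-HA, and stood at 0.98 in IC (adjusted p = 0.0135), just under the fold threshold. Rac1, the widely expressed relative of Rac2, was at 121 TPM in Normal and 147, 135.5 and 144 TPM in IC, IS and IS-HA and was not called in any comparison (log2 fold change 0.18 to 0.22 against Normal), nor was Rap1a, a small GTPase that copurifies with the enzyme (0.42 to 0.50). In IS against IC, Cybc1 stood at 0.52 (adjusted p = 0.181) and Rap1a at 0.06 (adjusted p = 0.832).

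Other NADPH oxidases were scarce. Of 9 genes for other catalytic chains and their partners, 4 passed the filter on low counts, and Nox3, Nox4, Duox2, Noxo1 and Duoxa2 were not tested. Duoxa1, a maturation factor of the dual oxidases, rose against Normal by 2.68 in IC, 4.32 in IS and 3.42 in IS-HA, though only to means of 0.673, 2.03 and 1.12 TPM, and it had the largest value of the list in IS against IC, at 1.64 (adjusted p = 0.147). Duox1 was called in IS (2.00, adjusted p = 0.00998), with a mean of 0.510 TPM there, and not in IC (1.53, adjusted p = 0.0655) or IS-HA (1.47, adjusted p = 0.0569). Nox1 had means of 1.11 TPM in Normal and 0.464 TPM in IS (log2 fold change -1.20, adjusted p = 0.0590), and Noxa1 1.63 and 0.943 TPM (-0.75, adjusted p = 0.318).

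Receptors that trigger the oxidase rose throughout, with all 13 tested genes, of 16 listed, called higher in each hemorrhage group and median log2 fold changes of 3.47 in IC, 4.34 in IS and 3.62 in IS-HA. The shares of all tested genes called higher were 10.9%, 18.8% and 15.1%. Fcer1g, the signaling chain shared by Fc receptors, went from a mean of 10.7 TPM in Normal to 124, 228 and 154 TPM in IC, IS and IS-HA. Fcgr3a, a receptor for immunoglobulin G, went from 2.63 to 103.5, 158 and 154 TPM, and Tnfrsf1a, a receptor for tumor necrosis factor, from 17.9 to 84.9, 143 and 95.5 TPM. In IS against IC none was called, and the largest values were 1.37 for Csf2ra, a chain of the GM-CSF receptor, and 1.15 for Fcgr2a (adjusted p = 0.164 and 0.159). The formyl peptide receptor genes Fpr1 and Fpr2 were too low to test, and C5ar1 was not analysed here.

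Of 10 tested regulators of Rac, 5 were called higher in IC, 6 in IS and 6 in IS-HA, and 0, 2 and 1 were called lower, where 10.9%, 18.8% and 15.1% of all genes were called higher and 2.66%, 17% and 7.7% lower. Arhgdib, a GDP dissociation inhibitor of blood cells, rose by 2.43, 3.67 and 3.08, and its widely expressed relative Arhgdia rose by 1.53 in IS and 1.19 in IS-HA from the highest level of the list, 485 TPM in Normal. Elmo1, part of an exchange factor for Rac, fell by 1.56 in IS and 1.04 in IS-HA on the log2 scale and had means of 82.5 TPM in Normal and 27.7 TPM in IS. In IS against IC, Arhgdib stood at 1.24 and Elmo1 at -0.75 (adjusted p = 0.152 and 0.148), and none was called.

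Of 14 kinases and lipid enzymes that act on the oxidase, 4, 5 and 6 were called higher in IC, IS and IS-HA and 0, 3 and 2 lower, to be read against the same shares of all genes. Prkcb and Prkcz, protein kinases C that can phosphorylate p47phox, fell by 1.40 and 1.16 in IS, and Prkcb fell by 1.22 in IS-HA on the log2 scale. Prkca, of the same family, fell by 3.08 in IS and 1.89 in IS-HA, and had the largest value of the list in IS against IC at -1.58 (adjusted p = 0.151). Plcg2, the phospholipase of blood cells downstream of immune receptors, rose by 1.88 in IC, 2.95 in IS and 2.45 in IS-HA. Akt1, at 94.4 TPM in Normal and 103 to 119 TPM in the other groups, was not called. The striatal neuron marker sum given above was lower in every injured rat than in Normal, as were Prkca, Prkcb and Prkcz in IS, and its part in these values was not tested.

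Transcription factors of myeloid cells were called higher in 7 of 9 tested genes, of 10 listed, in each hemorrhage group. Over all tested genes the shares were 10.9% in IC, 18.8% in IS and 15.1% in IS-HA. Spi1, which encodes PU.1, went from a mean of 3.56 TPM in Normal to 38.8 in IC, 81.4 in IS and 62.2 in IS-HA. Cebpd, a C/EBP factor of the acute phase response, went from 6.90 to 65.2, 119 and 74.0 TPM. In IS against IC, Cebpb had the largest value at 1.70 (adjusted p = 0.147), followed by Spi1 at 1.15 (adjusted p = 0.168). Rela, a subunit of NF-κB, was at 0.81 in IS against Normal (adjusted p = 0.0132), under the fold threshold. Cebpa was too low to test.

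Among the proton channel and the enzymes that use superoxide or peroxide, 2 of 7 tested genes, of 9 listed, were called higher in each hemorrhage group. Of all tested genes, 10.9% were called higher in IC, 18.8% in IS and 15.1% in IS-HA. Hvcn1, the proton channel that balances the charge moved by the oxidase, rose by 1.55 in IC, 2.58 in IS and 1.83 in IS-HA. Gpx1, a glutathione peroxidase, rose by 2.18, 3.40 and 2.88, from a mean of 152 TPM in Normal to 725, 1578 and 1071 TPM. The superoxide dismutases Sod1 and Sod2 were not called, with log2 fold changes between -0.27 and 0.40 against Normal. Only Clcn3, a chloride and proton exchanger, was called lower, in IS (-1.06, adjusted p = 0.0229), where 17% of all genes were. Mpo and Epx were too low to test.

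Enzymes that supply NADPH were called higher in 0 of 5 tested genes, of 6 listed, in IC, 4 of 5 in IS and 3 of 5 in IS-HA. The same call was made for 10.9%, 18.8% and 15.1% of all genes. In IC all 5 had an unadjusted p under 0.05 in edgeR in the higher direction, as did 19.8% of all genes. Taldo1 rose by 1.76 and 1.51, Tkt by 1.67 and 1.18 and Pgls by 1.92 and 1.41 in IS and IS-HA, all enzymes of the pentose phosphate pathway. Idh1, the cytosolic isocitrate dehydrogenase, rose by 1.47 in IS and stood at 0.99 in IS-HA (adjusted p = 0.0169), under the fold threshold. In IS against IC the largest values were 0.92 for Pgls and 0.88 for Taldo1 (adjusted p = 0.207 and 0.172), and Pgd was not analysed here.

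**Figure D5:**
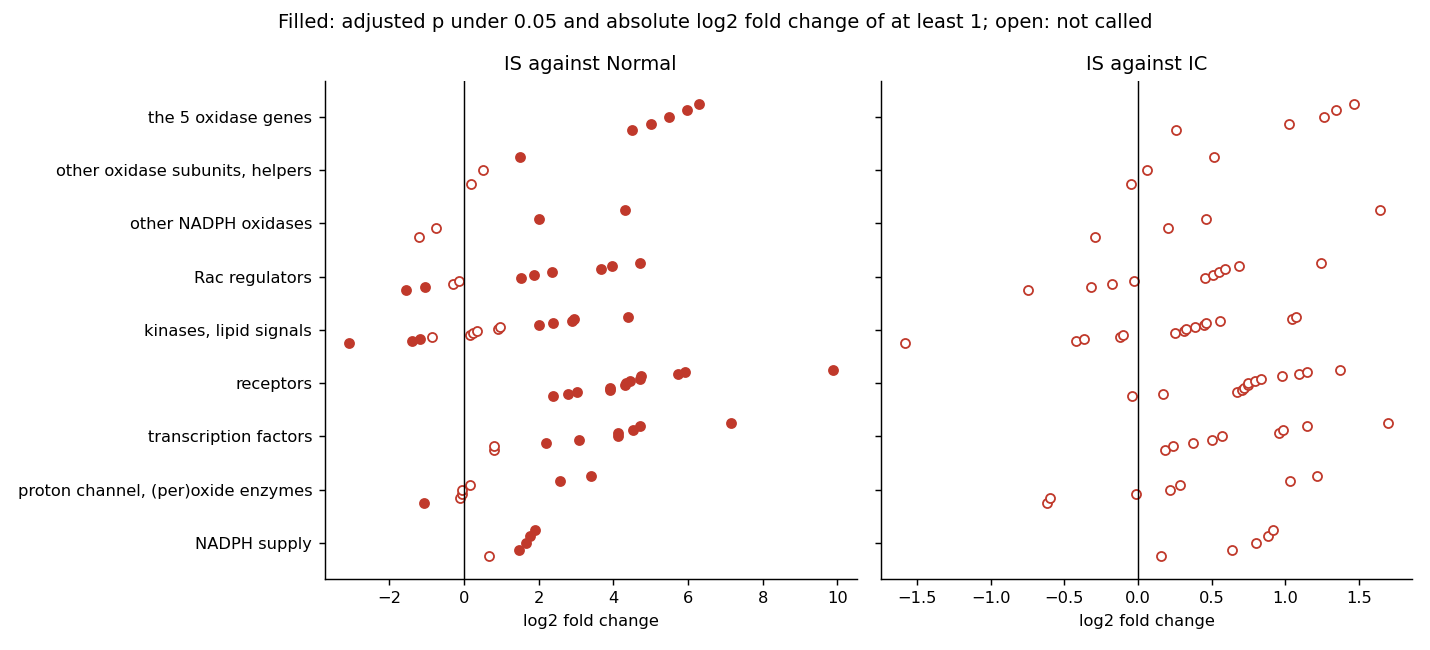
Fitted log2 fold changes (horizontal axes) of the 5 oxidase genes and of the tested genes of 8 related lists, for IS against Normal on the left and IS against IC on the right, where filled points are called and open points are not. The 13 receptors are all filled on the left and no point is filled on the right.

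The genes outside these members with the most similar profile over the 11 rats were ranked by the mean absolute difference in centered log2 CPM from the mean of the 5 members. They were ENSRNOG00000068731, which has no symbol (0.130), Ifi30, a lysosomal thiol reductase (0.146), Tyrobp, the adaptor DAP12 of myeloid receptors (0.150), Slc7a7, an amino acid transporter (0.154), and Ctsz, a lysosomal protease (0.158). Tyrobp is also 1 of the 8 pan-myeloid markers. Taken singly, the nearest gene was Mmp19 for Cybb (0.201), Ctsz for Cyba (0.135), Lyz2 for Ncf1 (0.203), Slc11a1 for Ncf4 (0.137) and Fcgr2al1 for Rac2 (0.144). All of these went up from Normal in group mean TPM, for example Tyrobp from 26.7 in Normal to 507 in IC, 1116 in IS and 761 in IS-HA. The likeness is a description over rats that share the step from Normal, and carries no test.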

How the data were processed

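The authors deposited, for each rat, whole-number read counts per gene without normalization, and TPM. Libraries were stranded and poly(A)-selected (paired-end reads of 150 bases). The submitters' processing notes list fastp 0.20.0, HISAT2 2.1.0, SAMtools 1.9, featureCounts and build mRatBN7.2, with no roles given. The strand setting of the counting and the annotation version are not given in the sources used here, so reads of an overlapping antisense gene cannot be told apart. Each column matched 1 rat by its library name, and 0 were left over.

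Counts were filtered with filterByExpr, scaled by TMM and tested with edgeR 4.0.16 (quasi-likelihood F test, 1 fit over the 4 groups, Benjamini-Hochberg adjustment over 15742 genes) in R 4.3.3. Standard errors are the absolute log2 fold change over the square root of F. Floors cover counting error only. In the main fit, each p-value sets a group difference against the spread between rats, estimated over all 4 groups with information shared across genes. Named genes were the members, up to 3 genes per list of highest mean TPM, up to 2 of largest change in IS against IC, those absent or not tested, and the nearest profiles. Mpo, S100a8, S100a9, Lyz2 and Olfml3 among the markers, and Clcn3, were named after their values were seen. Members, lists and tests were chosen with earlier results of these data known. Some genes of these lists are not reported here. The main fit did not pair rats by replicate number. Same-numbered deviations had a mean correlation of 0.03 for IC and IS over 3 pairs. Over 2 pairs each, it was -0.15 for IC and IS-HA and -0.27 for IS and IS-HA. So few pairs cannot show whether the numbers pair the rats. Alternatives were DESeq2 1.42.0, limma 3.58.1 on log2(TPM + 1) or log2(TPM + 0.1), other scalings and filters, only the groups compared, a replicate block and each rat left out. Gene lengths were taken from counts over TPM. Plots used matplotlib 3.10.9 in Python 3.11.15.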

Additional observations from a re-analysis of the deposited data

How the results depend on the processing

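Of 714 values of the members under the alternatives, 702 kept their direction and their side of the threshold, 2 lost a call, 3 gained one and 7 changed sign. The 2 lost calls were those of Cyba in IC against Normal, and the 3 gained calls were those of Cyba, Ncf4 and Rac2 in IS against IC without IS-HA replicate 2, so that the number of members called in that comparison ranged from 0 to 3 with 1 rat left out. The sign changes were all in values not called. With 1 rat left out, Cybb in IS against IC ranged from -0.131 (without IS replicate 4) to 0.560. In IS-HA against IC, Cybb ranged from -0.422 to 0.0743 (without IC replicate 3), Cyba from -0.202 to 1.19 and Ncf1 from -0.320 to 0.525, with the lowest values of Cyba and Ncf1 without IS-HA replicate 2, and Ncf1 was -0.0407 without IC replicate 2. The cause of these changes was not tested.

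With the replicate number as a block, 4 members were called in IC against Normal, Cyba being at 3.29, and Cybb in IS-HA against IC was 0.0312, or 0.0412 with the correction for gene length added. The block moved Ncf1 to 4.28 in IC and 5.34 in IS and Cyba to 4.60 in IS. On log2(TPM + 1), which understates the change of low genes, Ncf4 was 3.77 in IC, 4.95 in IS and 4.27 in IS-HA, and Cybb was 3.50, 3.64 and 3.34. The block changed no other call of a member. The corrections for gene length were chosen after seeing the data. Scaling by library size alone moved the median of all genes against Normal by 0.14 in IC, 0.13 in IS and 0.13 in IS-HA, and members stayed called. Ncf4 could not be tested where at least 10 counts were asked of every rat. The 2 Normal rats and their low counts limit the precision of every fold change against Normal.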
